A study of Trichoderma reesei with 11 samples.

Results

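A set of 26 gene IDs of the filamentous fungus Trichoderma reesei stood, by group means, at a lower level in light than in darkness in a strain without the kinase TR_57513, while the same means were near steady in the parent strain. They were chosen from 10879 gene IDs by the means themselves. A member reached at least 5 in the dark group of the deletion strain and had a light-to-dark ratio of at most 0.4 in the deletion strain and of 0.75 to 1.5 in the parent, and a ratio of deletion strain to parent in darkness of 0.667 to 1.5. Levels in this rule were group means of CPM (read counts divided by the library total and scaled to a common size) plus 0.5, and the first and last 20 IDs of each of the 7 lettered ID series were skipped. All 4 groups of libraries were used by the rule, so the sizes of these ratios describe how the members were picked and are no finding.

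Mycelium was grown for 96 h at 28 °C with cellulose as the carbon source, in constant light or constant darkness. The parent strain was QM6a with mus53 deleted, a deletion that favours targeted gene replacement, and the second strain carried that deletion together with the deletion of TR_57513. There were 2 dark and 3 light libraries of the parent, and 3 dark and 3 light libraries of the deletion strain. Whether the deletion strain was 1 clone, and whether replicates were separate cultures, is not stated in the sources used, so tests measure the spread between these libraries, which may be technical.

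TR_57513 is named in the series title as the MAPKKK of the HOG pathway. In yeast this cascade runs from a MAPKKK through a MAPKK to the MAP kinase Hog1 and is best known for the response to high osmolarity. In filamentous fungi the corresponding MAP kinase is also known to take part in responses to light and other stresses. T. reesei is known for secreted cellulases, whose genes respond to light through blue-light photoreceptors, and light and darkness are therefore standard conditions for this fungus.

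The count table gives systematic IDs only and pairs none of them with a gene name. None of the 10879 IDs matched the 9116 genes of RefSeq's table for a QM6a assembly, so members are given by ID, with no role, sequence or gene length. The ID that stands for TR_57513 could not be looked up for the same reason, and the deletion was not checked in the counts. Lists of HOG pathway, light-sensing and cellulase genes were not tested.

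Library totals were 13790024 to 18278047 counts in darkness and 8020351 to 10184280 in light. The library numbers in the labels form one run for darkness and another for light, and within a strain the effects of light and of the run cannot be told apart. A shift common to both strains cancels in the interaction, which is the genotype effect in light minus that in darkness. Deletion replicate 1 in darkness, parent replicate 1 in light and the 2 parent libraries in darkness, which lay apart from each other, touch the members, and their values are given beside each result. Across all tested gene IDs the replicates of the deletion strain correlated at 0.946 to 0.992 in darkness and at 0.990 to 0.994 in light. Parent replicates correlated at 0.977 in darkness, for the 2 libraries there, and at 0.965 to 0.989 in light. These correlations are of log2 CPM, gene IDs not being independent replicates.

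The limits of the rule left few IDs. Of 7527 gene IDs away from the series ends and at the minimum level, 751 had a light-to-dark ratio of at most 0.4 in the deletion strain. In the parent, 450 of these 751 also had a ratio of at most 0.4, another 152 lay between 0.4 and 0.75, and 43 lay above 1.5. The parent was steady for 106. Of the 106, 73 exceeded the upper limit on the genotype ratio in darkness, 7 were below the lower limit and 26 met it. Most gene IDs that were low in light in the deletion strain were therefore low in the parent too, or began from a higher dark level in the deletion strain.

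**Figure D1:**
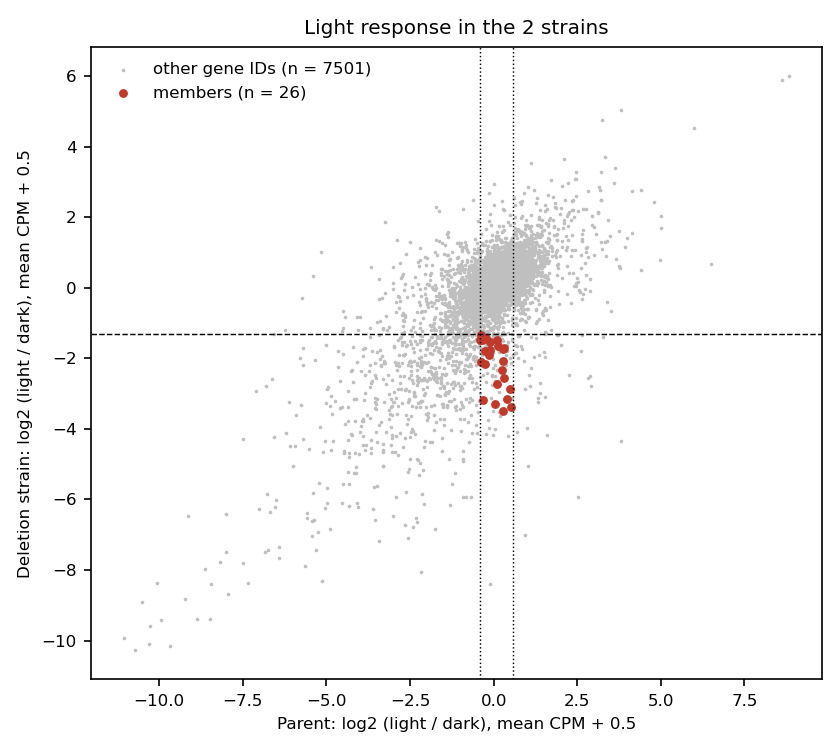
Ratio of light to darkness in the parent (x axis) and in the deletion strain (y axis), both log2 of group means of CPM + 0.5, for 7527 gene IDs. The 26 members (red) lie under the dashed limit of 0.4 and between the dotted limits of 0.75 and 1.5. Grey points in the same area lie above or below the limits on the ratio of deletion strain to parent in darkness.

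By group means the members ranged widely. The light-to-dark ratio in the deletion strain was 0.0890 to 0.392 with a median of 0.279, against a median of 1.18 over the 4189 gene IDs that met every other limit. It was at most 0.2 for 9 members, above 0.2 and up to 0.3 for 7, and above 0.3 for 10. In the parent the same ratio was 0.758 to 1.45 and lay below 1 for 13 of 26. The ratio of deletion strain to parent was 0.708 to 1.45 in darkness and 0.0677 to 0.649 in light. The member nearest the limit of 0.4 was TrD0191C at 0.392. The nearest gene ID outside it was TrD1212W at 0.4002, which met all other limits.

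TrB0569C and TrB1119C had the smallest standard errors of the light effect in the deletion strain. TrB0569C stood at 83.5 and 85.3 CPM in the parent in darkness, at 59.4, 76.1 and 60.3 CPM in the parent under light, at 79.3, 79.1 and 108 CPM in the deletion strain in darkness and at 20.8, 21.2 and 18.5 CPM in the deletion strain in light. The 3 deletion libraries in light were the lowest of the 11 libraries, and the other groups lay close together. Its log2 change with light in the deletion strain, from the edgeR fit of all libraries with TMM scaling, was -2.34 (SE 0.15, n = 3 each). It was also the single member that passed the threshold for light in the parent, with a log2 change of -0.52 (SE 0.16). That call was lost with upper-quartile scaling, with library totals alone, and without either dark parent library or light parent replicate 1 or 3.

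TrB1119C had a parent mean that was higher in light than in darkness. Parent libraries held 86.1 and 108 CPM in darkness and 108, 116 and 136 CPM in light. In the deletion strain it stood at 106, 77.2 and 78.6 CPM in darkness and at 27.1, 27.1 and 24.3 CPM in light. The light libraries of the deletion strain again lay below all 8 others, while the parent groups overlapped slightly. The means of the deletion strain were 87.2 ± 16.1 CPM in darkness and 26.2 ± 1.60 CPM in light (SD, n = 3 each). The log2 change with light was -1.94 (SE 0.17) in the deletion strain and 0.14 (SE 0.18) in the parent.

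TrC0197C carried the most counts of the set. Its level in the parent was 1333 and 2315 CPM in darkness and 2592, 2292 and 1878 CPM in light. In the deletion strain it was 3086, 1883 and 2559 CPM in darkness and 475, 422 and 369.8 CPM in light. The counts behind the last group were 4842, 3835 and 3300. No library of another group was below 1333 CPM. The log2 change with light in the deletion strain was -2.78 (SE 0.27), and the genotype effect in light was -2.50 (SE 0.27).

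TrA0483W and TrA0485W, named after their values were seen, are members that sit on either side of 1 other ID. TrA0483W stood at 12 and 11.4 CPM in the parent in darkness, at 11.4, 11.1 and 9.58 CPM in the parent under light, at 15.5, 8.55 and 8.48 CPM in the deletion strain in darkness and at 3.34, 2.2 and 3.03 CPM in the deletion strain in light. TrA0485W stood at 36.7 and 41.8 CPM, at 20.5, 46.0 and 54.0 CPM, at 79.5, 41.3 and 36.9 CPM and at 3.73, 6.38 and 4.71 CPM in the same order of groups. In both, the light libraries of the deletion strain lay below every other library. TrA0484W, the ID between them, did not share the pattern, with a ratio of light to darkness of 0.952 in the deletion strain and 0.896 in the parent.

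**Figure D2:**
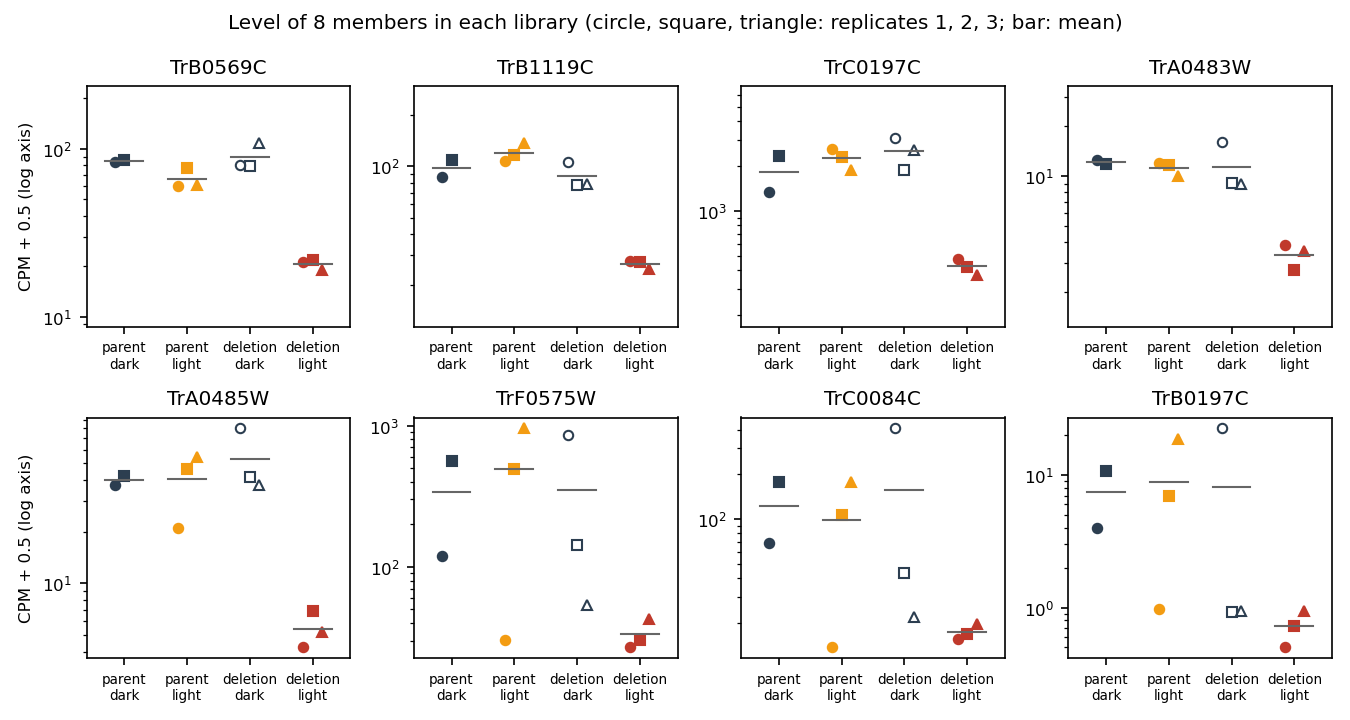
CPM + 0.5 on a log axis in each of the 11 libraries for 8 members, with the group mean as a bar. TrB0569C, TrB1119C, TrC0197C, TrA0483W and TrA0485W keep the 3 light libraries of the deletion strain below all others; TrF0575W, TrC0084C and TrB0197C spread widely in the remaining groups, and their replicate 1 in darkness is the highest deletion library.

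The remaining gene IDs included some whose dark levels in the deletion strain rested on 1 library. TrB0197C had the lowest light-to-dark ratio of all members and the widest spread. It had 22.0, 0.424 and 0.435 CPM in the dark deletion libraries and 0, 0.220 and 0.448 CPM in light, where 6 counts were found in the 3 libraries together. Those 6 counts correspond to 0.213 CPM (exact Poisson 95% interval 0.0781 to 0.463, counting error only). Deletion replicates 2 and 3 in darkness lay within that interval, so without replicate 1 no difference from light was detectable at this depth. The parent had 3.50 and 10.3 CPM in darkness and 0.466, 6.48 and 18.2 CPM in light.

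TrC0084C showed the second widest spread. It had 407, 42.8 and 21.5 CPM in the dark deletion libraries and 15.1, 16.3 and 19.3 CPM in light. In the parent it stood at 68.0 and 178 CPM in darkness and at 13.2, 106 and 176 CPM in light. Parent replicate 1 in light was below every light library of the deletion strain. TrC0084C passed the threshold for light in the deletion strain with all libraries and missed it in 13 of 19 alternatives, and its log2 change went from -3.45 (SE 1.24) to -1.12 without deletion replicate 1 in darkness.

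TrB0707C, named after its values were seen, was the member for which 1 dark library lay below the light mean of the deletion strain. Its dark levels were 50.9, 7.58 and 4.93 CPM and its light levels 5.70, 6.82 and 8.29 CPM. The light mean divided by the dark library was 0.145, 0.920 and 1.37 for replicates 1, 2 and 3. In the parent TrB0707C stood at 13.6 and 46.6 CPM in darkness and at 6.53, 25.8 and 51.7 CPM in light.

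The spread within groups was wider for the members than for other gene IDs. In the deletion strain in darkness the highest library was 2.10 times the lowest for the median member, and 1.26 times for the median of the 7527 gene IDs at the minimum level. The corresponding ratios were 2.10 and 1.23 in the parent in light, and 1.70 and 1.17 in the parent in darkness. In the deletion strain in light they were 1.41 and 1.15. A spread of at least 2 times was found for 15 of 26 members in the deletion strain in darkness, where 12.2% of the 7527 gene IDs had one, and for 1 of 26 in the deletion strain in light, where 1.95% had one. No test was made of these spreads.

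The order of the libraries within groups was also shared. Deletion replicate 1 was the highest of 3 in darkness for 20 of 26 members, as for 33.3% of 9040 tested gene IDs. Parent replicate 2 was the higher of 2 in darkness for 23 members, against 38.8%, and parent replicate 1 was the lowest of 3 in light for 20, against 35.6%. All 3 orders held together for 16 members, against 10.4% of tested gene IDs. Deletion replicate 1 was at least 2 times both other dark libraries for 10 members, where 4.57% of tested gene IDs met that. The rule used the means that contain these libraries, and the part of single libraries in the choice of members was not tested beyond the values that follow.

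Set against each dark library in turn, the light mean of the deletion strain was at most 0.4 times the library for 22 members with replicate 1, for 21 with replicate 2 and for 15 with replicate 3. Of gene IDs at the minimum level by the other dark libraries, 9.76%, 9.09% and 8.78% met the same limit. The light mean was at most 0.4 times every dark library for 11 of 26 members. No share over all gene IDs was taken for that number. The rule holds the light mean to at most 0.4 times the dark mean, so these numbers are a description. The 11 included TrB0569C, TrB1119C, TrC0197C, TrA0483W and TrA0485W, and left out TrB0197C, TrC0084C, TrB0707C and TrF0575W.

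**Figure D3:**
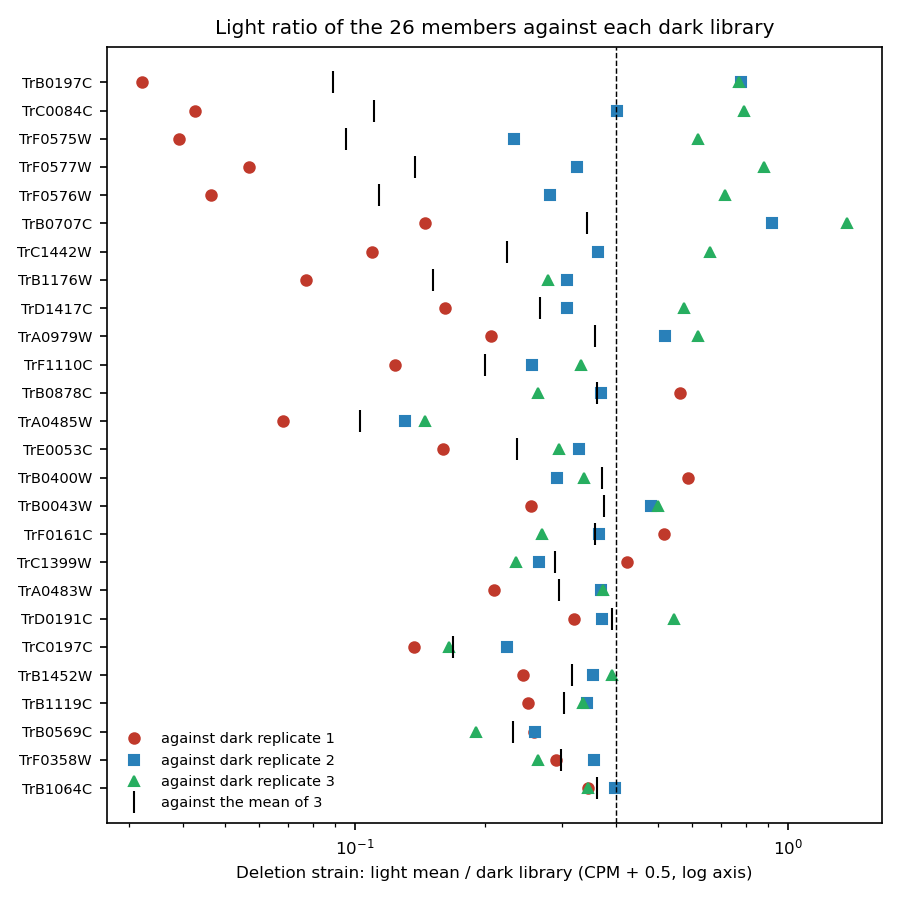
Light mean of the deletion strain divided by each of its 3 dark libraries (CPM + 0.5, log axis) for the 26 members, ordered by the spread of the dark libraries, widest at the top. The points of the upper rows part widely, with the ratio against replicate 1 lowest; TrB0569C, TrB1119C and TrC0197C stay under the dashed limit of 0.4 against every library.

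The rule was then applied without 1 library and read in that library. Each light library of the deletion strain, held out, met the limit of 0.4 for most gene IDs chosen without it. The numbers were 22 of 27 for replicate 1, 24 of 27 for replicate 2 and 24 of 28 for replicate 3, where 10.2%, 10.1% and 9.95% of all gene IDs at the minimum level met it. Held-out dark libraries of the deletion strain met it for 13 of 17, 20 of 33 and 11 of 31 gene IDs, against 9.76%, 9.09% and 8.78%. Each of these ratios still has on its other side a mean that the rule used, and a held-out dark library holds no light level, so the shares describe single libraries and nothing is read from them about the set.

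For parent libraries, which were read against the limits of 0.75 to 1.5, the shares differed from library to library. Parent replicate 1 in light, held out, lay at 0.75 to 1.5 times the dark mean for 8 of 31 gene IDs (25.8%), while 54.5% of all gene IDs at the minimum level did. Parent replicate 3 in light gave 11 of 26 (42.3%, against 61.4%). Parent replicate 2 in light went the other way, with 21 of 24 (87.5%, against 62.0%). Held-out parent replicates 1 and 2 in darkness gave 11 of 24 (45.8%, against 60.3%) and 8 of 28 (28.6%, against 59.2%). The median ratio of held-out parent replicate 1 in light to the dark mean was 0.528.

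**Figure D4:**
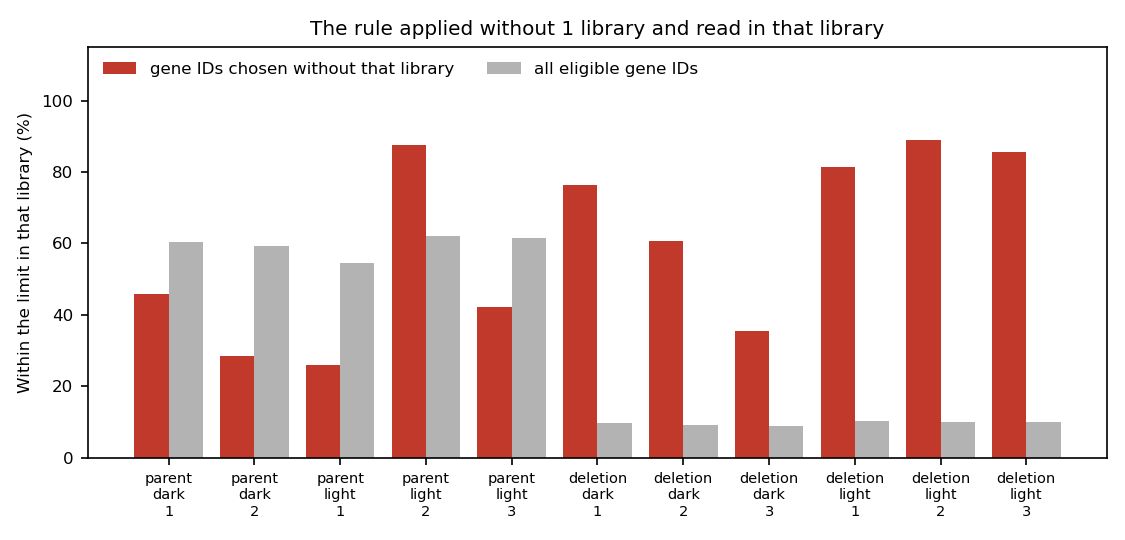
Percentage of gene IDs that met the limit in a library after the rule was applied without it (red) and the same over all gene IDs at the minimum level (grey). For deletion libraries the limit is a light-to-dark ratio of at most 0.4, and for parent libraries a ratio of 0.75 to 1.5; deletion light libraries reach 81.5% to 88.9%, parent replicate 1 in light 25.8% and parent replicate 2 in light 87.5%.

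Membership depended on single libraries accordingly. With each library left out in turn the rule chose 17 to 33 gene IDs, the lowest number without deletion replicate 1 in darkness, when 11 of the 26 members were chosen again. Without parent replicate 2 in darkness 11 were chosen again, and without parent replicate 1 in darkness 12. Any single light library of the deletion strain could be left out with at least 25 chosen again. TrA0483W and TrB1119C were chosen under all 11 omissions, and 6 other members under 10 of them, among them TrB0569C and TrA0485W. TrB0197C and TrC0084C were chosen under 5. With totals scaled by TMM the rule chose 32 gene IDs, of which 18 were among the 26. Totals alone gave a median log2 light change over all tested gene IDs of 0.19 in the deletion strain and 0.15 in the parent, and TMM gave -0.01 and 0.00.

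All 26 members passed the filter on low counts and were among the 9040 tested gene IDs. In the edgeR quasi-likelihood fit with Benjamini-Hochberg adjustment over all of these, 21 members were lower in light in the deletion strain, where 22.7% of tested gene IDs were. The rule used this contrast, so nothing is read from the number. The median log2 change of the 26 was -2.13, against -0.01 over all tested gene IDs, and standard errors ran from 0.15 to 2.13. The 5 members that missed the threshold were TrB0197C, TrB0707C, TrF0575W, TrF0576W and TrF0577W. All 5 showed the 3 library orders given above. DESeq2 called 25 members lower in light, and its share over all gene IDs was not taken.

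Under light, the deletion strain was below the parent for 16 members, as for 13.1% of tested gene IDs, and the median log2 genotype effect of the 26 was -2.11. The number was 21 with DESeq2, 9 with voom and 10 without deletion replicate 1 or 3 in light. Shares over all gene IDs were not taken for these fits. In darkness no member passed the genotype test in edgeR at the adjusted threshold or at an unadjusted p under 0.05, and DESeq2 called 0, where 12.2% of tested gene IDs passed in edgeR. Without deletion replicate 1 in darkness 2 members passed, again with no share taken. In the parent, 1 member passed the test for light, where 38.7% of tested gene IDs did. The limits of the rule hold each of these numbers down or up. The median log2 light change of the 26 in the parent was -0.19, with 17 below 0. Without parent replicate 1 in darkness it was -0.50, with all 26 below 0. Without parent replicate 2 in darkness it was 0.42, with 8 below 0. The median genotype effect in darkness was 0.03 with all libraries, and -0.31 and 0.66 with the same omissions.

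The fitted interaction was below 0 for all 26 members, with a median of -1.91, and for 25 without deletion replicate 1 in darkness. The limits on the light ratios of both strains fix this sign by group means. They also favour a low light level in the deletion strain, so the numbers in this paragraph are a description. The interaction passed the threshold for 9 members, where 5.42% of tested gene IDs passed in that direction. All 9 also passed the tests for light in the deletion strain and for genotype in light. In each of the 9 the 3 light libraries of the deletion strain lay below the other 8 libraries. That separation was found for 17 of 26 members, where 4.5% of tested gene IDs showed it. Of the 11 members whose dark deletion libraries spanned less than 2 times, 7 passed the interaction test, and of the 15 with a wider span 2 passed. The number passing was 4 without parent replicate 1 in darkness.

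Where the groups overlapped, the overlap lay in few libraries. Parent replicate 1 in light was at or below the highest light library of the deletion strain for 8 members. Deletion replicates 2 and 3 in darkness were so for 2 and 3 members. None of the other 5 libraries was so for any member. Shares over all gene IDs were not taken for single libraries. By group, the deletion strain in light lay wholly below its dark libraries for 23 members, against 21.2% of tested gene IDs. It lay wholly below the parent in light for 18, against 19.1%. The rule chose members for a low light mean in the deletion strain, so these numbers are a description. The ranges of the parent in light and in darkness overlapped for 21 of 26 members, where 37.8% of tested gene IDs overlapped. The rule also chose members for a steady light-to-dark ratio in the parent, which favours such overlap. Nothing is therefore read from the difference between these shares.

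Position was used by the rule for the series ends alone. The members lay in series A (3), B (10), C (4), D (2), E (1) and F (6), and none lay in series G. Series B held 38.5% of the members and 19.1% of the 7527 gene IDs at the minimum level, and series F held 23.1% and 9.23%. The IDs end in W for 13 members and in C for 13, and 49.4% of the 7527 end in W. No test was made of these shares.

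TrF0575W, TrF0576W and TrF0577W formed the only run of adjoining serial numbers. TrF0575W stood at 118 and 564 CPM in the parent in darkness, at 30.1, 495 and 954 CPM in the parent under light, at 852, 143 and 53.4 CPM in the deletion strain in darkness and at 26.4, 30.0 and 42.2 CPM in the deletion strain in light. The level of TrF0575W differed 36.1 times between the highest and lowest library. Parent replicate 3 in light was the highest and deletion replicate 1 in light the lowest.

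TrF0576W and TrF0577W followed TrF0575W from library to library. TrF0576W held 9.52% to 15.6% of the CPM of TrF0575W over the 11 libraries, and TrF0577W held 12.2% to 18.7% (not scaled by gene length). The share of TrF0577W was 17.5%, 18.7% and 16.2% in the deletion strain in light and 17.4% in parent replicate 1 in light. In the other libraries it was 12.2% to 13.8%. TrF0576W stood at 14.9 and 74.7 CPM in the parent in darkness and at 4.08, 64.2 and 109 CPM in the parent in light. In the deletion strain it had 95.7, 15.3 and 5.73 CPM in darkness and 4.12, 2.86 and 4.93 CPM in light. Deletion libraries held 108, 18.5 and 6.53 CPM of TrF0577W in darkness and 4.61, 5.61 and 6.84 CPM in light. Parent libraries held 16.4 and 76.0 CPM of it in darkness and 5.25, 65.8 and 123 CPM in light. The 3 IDs thus kept their proportions within the ranges above while each varied at least 26.6 times between libraries. In edgeR with all libraries none of the 3 passed the threshold for light in the deletion strain, with log2 changes of -3.64 (SE 1.35), -3.52 (SE 1.37) and -3.20 (SE 1.31). All 3 passed with DESeq2, and in edgeR without parent replicate 1 in light or without deletion replicate 3 in darkness. Without deletion replicate 1 in darkness the log2 changes were -1.76, -1.60 and -1.33, short of the threshold. The 3 IDs left the set without that library, without either dark parent library or without parent replicate 1 in light. How reads shared by neighbouring IDs were counted is not given in the sources used here.

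Next to this run the pattern stopped on one side. TrF0574W had a light-to-dark ratio of 0.957 in the deletion strain and 0.780 in the parent. On the other side TrF0578W had at most 0.274 CPM in any library. Farther on, TrF0580W had a ratio of 0.255 in the deletion strain and 0.908 in the parent, and its levels of 24.6, 9.16 and 11.2 CPM in the deletion strain in darkness exceeded 7.91 and 8.76 CPM in the parent. Between TrF0578W and TrF0580W, TrF0579W had a ratio of 0.271 in the deletion strain and 0.527 in the parent. TrF0579W and TrF0580W were chosen after their values were seen.

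**Figure D5:**
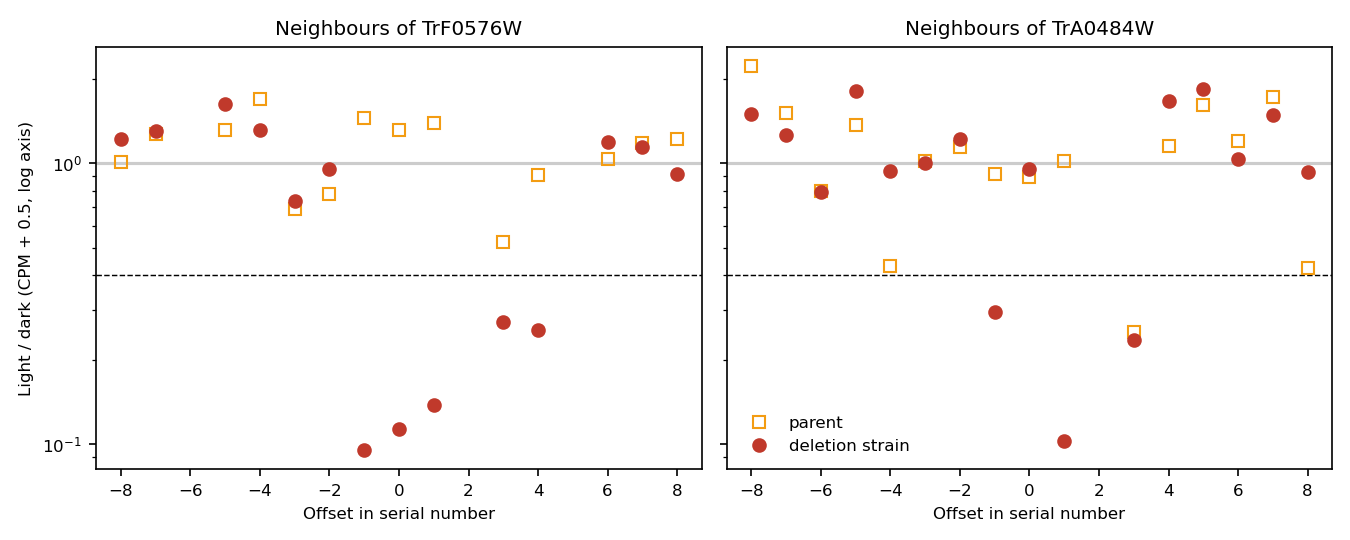
Ratio of light to darkness (CPM + 0.5, log axis) in the parent (open squares) and the deletion strain (filled circles) by offset in serial number around TrF0576W and TrA0484W, for IDs that average 2 CPM or more in the dark deletion libraries; the dashed line is the limit of 0.4. On the left the 3 adjoining members are at 0.0955 to 0.137 in the deletion strain, and on the right TrA0483W and TrA0485W flank TrA0484W, which is at 0.952.

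Apart from that run and the TrA0483W and TrA0485W pair, members were scattered. Within 5 serial numbers of another member lay 5 of 26. Members made up 0.345% of the 7527 gene IDs, which is a different measure. The share of gene IDs with a member within 5 serial numbers was not worked out. Next to members were 47 other IDs, of which 29 reached the minimum level. Their median light-to-dark ratio in the deletion strain was 0.983, against 1.14 over the 7527, and 4 of 29 had a ratio of at most 0.4, against 9.98% of the 7527.

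The same limits were applied the other way round for comparison. With the strains exchanged, 43 gene IDs met them, being low in light in the parent and steady in the deletion strain. With the light ratio at least 2.5 instead, 27 gene IDs met them in the deletion strain and 29 in the parent. The difference between these numbers was not tested.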

How the data were processed

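RNA was sequenced from 11 mycelium samples in 4 groups, taken from the sample titles. The labels describe a stranded library kit with removal of ribosomal RNA. The deposited values were raw read counts per gene ID, whole numbers without normalization. HISAT2 2.2.1 is listed in the submitters' processing notes, and a QM6a transcript set in the design text. How the counting step treated strand and multiple matches is not given in the sources used. The members and lists were chosen with earlier results of these data known.

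CPM used library totals in the rule and in all CPM printed. Tests used edgeR 4.0.16 (R 4.3.3) with filterByExpr, TMM scaling and quasi-likelihood F-tests with a mean for each group, which share 1 estimate of the spread. P-values were adjusted by Benjamini-Hochberg over 9040 gene IDs, with a threshold of 0.05. The fit was also run on simulated counts with the same spread setting for every gene ID and no outlying libraries. Such counts do not resemble the wide spread of the members, so nothing is read from them here. A count of 3 is 0.164 to 0.374 CPM in a library. Alternatives were other scalings, no filter, DESeq2 1.42.0, voom in limma 3.58.1, fits restricted to the compared groups, a replicate block, other limits in the rule and omission of each library. Named IDs were the 2 members each with the lowest light ratio, the most counts, the lowest genotype ratio in light, the smallest standard error and the widest dark spread, those in runs of serial numbers, and those nearest the limit. Others are said to be chosen after their values were seen.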

Additional observations from a re-analysis of the deposited data

Results flagged for a closer look

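The effect of light differed between the strains for 9 members by the interaction test in edgeR, with adjusted p-values over all tested gene IDs. The rule favours such gene IDs, so these values are a description. The log2 interaction was -1.85 for TrA0483W, -3.51 for TrA0485W, -1.81 for TrB0569C and -2.09 for TrB1119C. It was -1.84 for TrB1452W, -2.92 for TrC0197C, -1.63 for TrC1399W, -2.62 for TrE0053C and -2.19 for TrF0358W. For TrE0053C it missed the threshold in 12 of 18 alternatives and for TrA0483W in 6. TrB1452W missed it in 4, TrA0485W and TrF0358W in 1 each.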

How the results depend on the processing

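Of the 5 numbers of members passing a test, that for light in the deletion strain stayed between 16 and 25. Shares over all gene IDs were not taken for the alternatives. For genotype in light, voom gave 9, and for light in the parent upper-quartile scaling and library totals alone gave 0. With single libraries left out the ranges were 17 to 25 for light in the deletion strain, 0 to 2 for light in the parent, 0 to 2 for genotype in darkness, 10 to 21 for genotype in light and 4 to 10 for the interaction. The rule gave 16 gene IDs with a limit of 0.3, 46 with 0.5, and 17 to 33 with a library left out. From group medians it gave 20, of which 14 were among the 26 members. Adjoining members numbered 0 to 3, and members within 5 serial numbers 2 to 7, with a library left out. The interaction of TrB0707C, -1.58 with all libraries, ranged from -2.78 to 0.23 with a library left out, the highest without deletion replicate 1 in darkness. Between libraries of the same replicate number in different groups, correlations of deviations ran from -0.41 to 0.28. Libraries of unlike number were not compared, so whether the numbers pair the samples was not tested. With the replicate block 18 members passed for light in the deletion strain, 2 for light in the parent, 12 for genotype in light and 7 for the interaction. The cause of these changes was not tested. Fits that leave the parent 1 dark library assume that it varies like the other groups.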

Other observations

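A larger group of gene IDs met the limits on light and not that on the genotype ratio in darkness. For 73 gene IDs the light-to-dark ratio was at most 0.4 in the deletion strain and steady in the parent, and the deletion strain stood above the upper limit of 1.5 times the parent in darkness. Their median ratio of deletion strain to parent was 2.54 in darkness and 0.766 in light. In light, 35 of them lay within 0.667 to 1.5 times the parent, 30 lay below and 8 above. The limits fix part of these ratios, since the 73 were picked for a high dark ratio, so they are given as values only.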
